A study of Mus musculus with 9 samples.

Results

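The platelet-derived growth factor (PDGF) family comprised 6 genes, taken by their annotated symbols and not by their levels: the ligand genes Pdgfa, Pdgfb, Pdgfc and Pdgfd and the receptor genes Pdgfra and Pdgfrb. On Affymetrix mouse expression arrays, which read a transcript through 1 or more probe sets of short oligonucleotides, they were read by 14 of the 45037 probe sets tested, and 13 of these 14 were detected, that is, they reached a log2 signal of 5 on 1 or more arrays. RNA came from whole testis of 4 wild-type (WT) and 5 Tmem203 null samples of mice on the C57BL/6J background, aged 24 weeks and untreated. The null allele lacks the start codon of Tmem203, which codes for an endoplasmic reticulum protein with a role in calcium handling, and the loss is germline and therefore in every cell of the testis and of the animal. The selection cassette was removed with Flpe, so neither group carried it. The study speaks of its arrays as coming from null and WT mice, but left and right testes were taken separately and the labels tie no array to an animal. The p-values therefore measure the spread between these samples, which may in part be technical.

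PDGF ligands are secreted dimers that bind a pair of receptor tyrosine kinases. PDGF-A, PDGF-B and PDGF-C act on the alpha receptor, the product of Pdgfra, whereas PDGF-B and PDGF-D act on the beta receptor, the product of Pdgfrb. In the testis the tubules are a source of ligand and the receptors are found on mesenchymal cells outside the tubules, among them the precursors of Leydig cells, which make testosterone, and the contractile cells around tubules and vessels. Mice without Pdgfa lack adult Leydig cells.

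The labels were checked first on the targeted gene. Tmem203 signal was 9.67 to 9.93 in the WT arrays and 9.06 to 9.13 in the null arrays, a log2 difference of -0.70 (SE 0.06, limma adjusted p = 2.87e-04). The array medians lay between 6.96 and 7.05. The germ cell content of the samples was visible in 10 markers of elongating spermatids such as Prm1 and Tnp2, whose mean log2 signal was 13.05 to 13.12 over the 9 arrays. The 3′ minus 5′ signal of Gapdh, a measure of RNA integrity in which a lower value means a more even read of the transcript, was 0.92 to 0.95 in WT and 0.81 to 0.90 in null arrays (exact permutation test, two-sided, p = 0.0238), whereas that of beta-actin gave p = 0.341 in the same test.

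In whole testis, 1 of the 6 family genes passed the test between genotypes. Pdgfra was 1.68-fold higher in Tmem203 null testis, and neither the second receptor gene nor any of the 4 ligand genes passed. A probe set passed at a Benjamini-Hochberg adjusted p under 0.05 in limma, with the adjustment over all 45037 probe sets. It was called when it also changed by at least 1.5-fold. Of the 13 detected family probe sets 2 passed, both higher in null testis and both of Pdgfra, and 1 was called. Among all 29238 detected probe sets with a single gene, 9.93% passed and 1.70% were called. Counted by gene, 8.03% of 16180 genes were higher and 6.82% were lower. The median log2 fold change over the 6 genes was 0.10, beside -0.03 over all 16180. Pdgfra was also among the genes that the study lists as raised in these samples, so its rise here is no independent evidence.

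**Figure D1:**
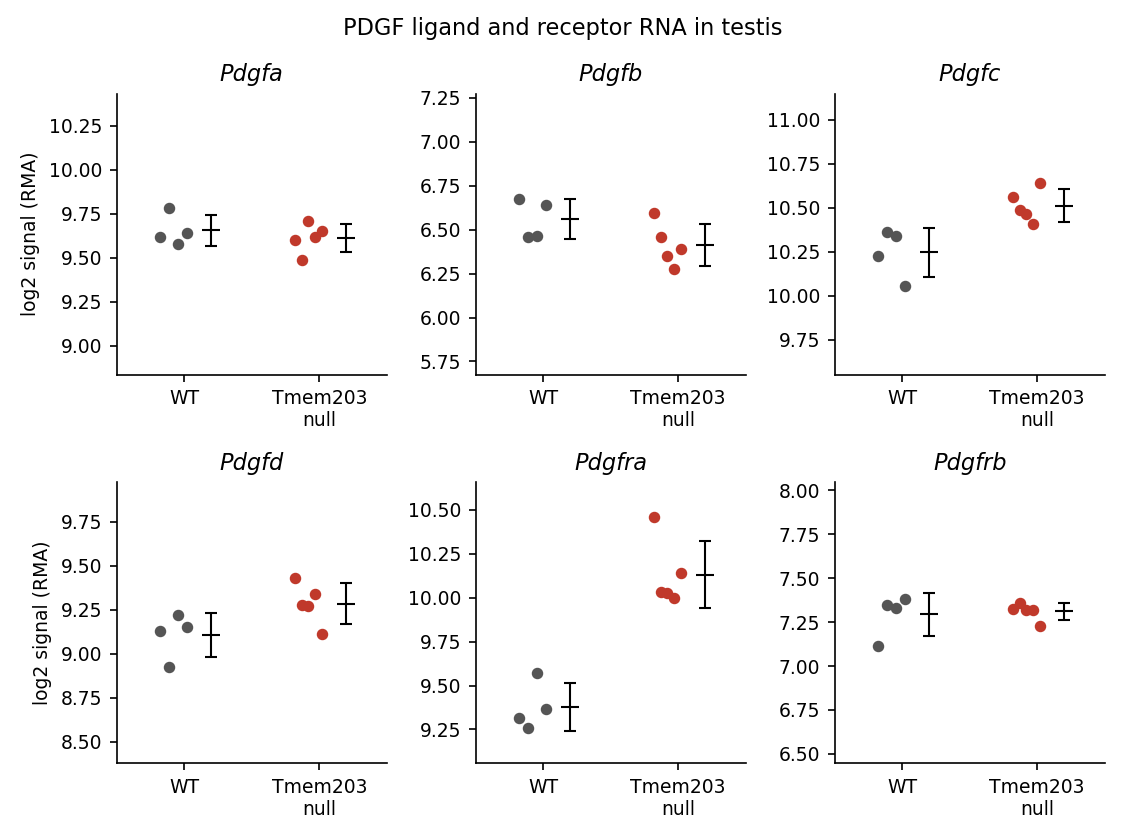
Log2 signal (RMA) of each PDGF family gene in the 4 WT and 5 Tmem203 null testis arrays, read through the probe set with the smallest p; points are arrays, and bars give the mean and SD. The null arrays of Pdgfra (9.996 to 10.46) lie wholly above the WT arrays (9.26 to 9.57), those of Pdgfc do so by a narrow margin, and the other 4 genes overlap.

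Transcript starts of Pdgfra and Pdgfc, the only family genes whose null arrays all lay above the WT arrays, are shown beside one of Pdgfa, a ligand of the same receptor whose arrays overlapped. Each run is the 250 bases before a transcript start in the RefSeq table of GRCm38.p6, written 5′ to 3′ on the gene's strand, with every CG dinucleotide in capitals. They lie at chr5:75152001-75152250 (plus strand) for Pdgfra, chr3:81036166-81036415 (plus strand) for Pdgfc and chr5:138994945-138995194 (minus strand) for Pdgfa. The Pdgfc window ends where the annotated gene begins, whereas those of Pdgfra and Pdgfa lie within the span of the gene, before the start of a transcript that begins inside it.
Pdgfra: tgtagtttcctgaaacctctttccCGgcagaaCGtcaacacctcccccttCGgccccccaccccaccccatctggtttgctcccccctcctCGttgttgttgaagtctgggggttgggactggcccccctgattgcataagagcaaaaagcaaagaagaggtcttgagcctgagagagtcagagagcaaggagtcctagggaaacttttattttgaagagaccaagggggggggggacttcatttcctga
Pdgfc: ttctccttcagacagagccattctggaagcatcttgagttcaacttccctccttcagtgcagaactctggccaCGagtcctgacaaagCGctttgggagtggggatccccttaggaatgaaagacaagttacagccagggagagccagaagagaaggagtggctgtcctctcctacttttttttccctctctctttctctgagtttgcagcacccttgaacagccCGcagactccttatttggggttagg
Pdgfa: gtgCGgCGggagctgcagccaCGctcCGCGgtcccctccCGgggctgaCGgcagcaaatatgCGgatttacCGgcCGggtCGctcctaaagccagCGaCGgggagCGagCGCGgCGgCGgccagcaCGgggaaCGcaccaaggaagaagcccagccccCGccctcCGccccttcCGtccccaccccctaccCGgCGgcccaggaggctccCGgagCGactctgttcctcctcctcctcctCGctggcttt

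The windows of Pdgfra and Pdgfc held few CG dinucleotides (4 and 3) at 54.4% and 50.8% GC, near the middle of all mouse promoter windows of that length (56.5 and 44.1 as percentiles). The Pdgfa window held 28 at 72.4% GC, the 93.6 percentile. The letters GGGCGG, the core of a GC box, were searched on both strands and found 2 times in this Pdgfa window and in neither of the other windows shown, against 32.7% of all 32851 windows with at least 1 match. The window of a second Pdgfa start, not shown, had 66.4% GC with 19 CG dinucleotides and 1 GGGCGG. The Pdgfd window had 53.6% GC with a single TATAAA, letters held by 12.4% of windows. These are descriptions of the sequence, and no measurement of these arrays bears on binding at them.

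Pdgfra, the alpha receptor, had a log2 signal of 9.31, 9.26, 9.57 and 9.37 in WT replicates 1 to 4 on its lead probe set 1421917_at, the one with the smallest p. The null replicates 1 to 5 read 10.46, 10.03, 10.03, 9.996 and 10.14. Every null array was above every WT array. The means were 9.38 ± 0.14 (SD, n = 4) and 10.13 ± 0.19 (SD, n = 5), and the log2 difference was 0.75 (SE 0.10, 95% interval 0.53 to 0.98, limma adjusted p = 0.00239). By p it stood at place 390 of the 45037 probe sets. Null replicate 1 was the highest array, and without it the log2 difference was 0.67 with an adjusted p of 0.00216 in limma.

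The other Pdgfra probe sets were higher in null testis too, by less. On 1421916_at, WT arrays read 5.98, 5.76, 5.80 and 5.70 and null arrays 6.46, 6.06, 6.31, 6.16 and 6.31, again without overlap. The log2 difference was 0.45 (SE 0.09, limma adjusted p = 0.0136), a 1.37-fold change that is under the 1.5-fold needed for a call. On 1438946_at, WT arrays read 6.35, 6.65, 6.22 and 6.07 and null arrays 7.11, 6.67, 6.66, 6.50 and 6.81. Here the groups overlapped through WT replicate 2, and the log2 difference of 0.43 (SE 0.14, interval 0.12 to 0.73) did not pass (limma adjusted p = 0.0916). Null replicate 1 was the highest array on all 3 probe sets. Over the 9 arrays the lead probe set correlated with 1421916_at at r = 0.90 and with 1438946_at at r = 0.76, values that include the genotype difference all 3 share. The difference in fold between the probe sets was not tested.

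**Figure D2:**
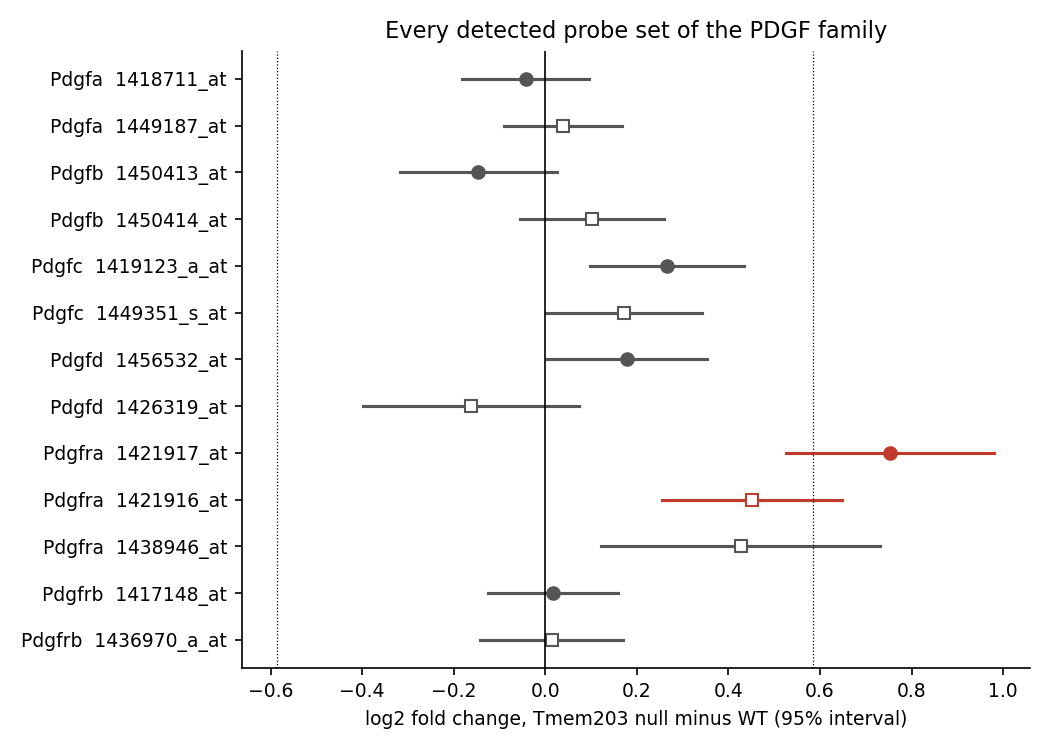
Log2 fold change, Tmem203 null minus WT, of each of the 13 detected PDGF family probe sets with its 95% interval; circles are lead probe sets, squares the others, red those that passed, and the dotted lines mark 1.5-fold in either direction. The 3 Pdgfra probe sets (0.75, 0.45 and 0.43) lie farthest to the right, and 1421917_at is the single probe set past the dotted line.

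Pdgfrb, the beta receptor of pericytes and smooth muscle, differed between the genotypes by less than the spread of the arrays. Its lead probe set 1417148_at read 7.11, 7.35, 7.33 and 7.38 in WT and 7.32, 7.36, 7.32, 7.32 and 7.23 in null testis. The groups lay within each other, and the lowest value was WT replicate 1. The log2 difference was 0.02 (SE 0.06, limma adjusted p = 0.901), and its 95% interval of -0.12 to 0.16 leaves out a change of 1.5-fold in either direction. The second probe set, 1436970_a_at, gave 0.01 (SE 0.07, interval -0.14 to 0.17, limma adjusted p = 0.927).

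Both receptors were then set against each other within each array, which removes any factor common to an array. The Pdgfra minus Pdgfrb difference of log2 signals was 1.91 to 2.24 in the 4 WT arrays (2.08 ± 0.16, SD) and 2.67 to 3.13 in the 5 null arrays (2.82 ± 0.20, SD). The groups did not overlap, and the shift was 0.74 (SE 0.12). An exact two-sided permutation test over all 126 labelings gave p = 0.00794, the smallest this design allows, and 0.0238 after Benjamini-Hochberg adjustment over the 3 pairs compared. On these lead probe sets the receptor genes therefore changed unequally. The Pdgfra probe set was picked by its genotype p, a choice that the labelings did not repeat, and it separated the groups by itself. It was also the Pdgfra probe set with the highest mean signal. The other Pdgfra probe sets, with smaller differences, were not compared in this way. The size of such a difference on 1 array is no comparison of the amounts of the 2 transcripts, because different probes bind with different strength.

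Among the ligands of the alpha receptor, Pdgfc was the nearest to the threshold. Pdgfc codes for a ligand with a CUB domain that must be cut off before it can bind. Its lead probe set 1419123_a_at read 10.22, 10.36, 10.34 and 10.06 in WT and 10.56, 10.49, 10.46, 10.41 and 10.64 in null testis. All 5 null arrays were above all 4 WT arrays, closely so for WT replicate 2 and null replicate 4. The means were 10.25 ± 0.14 (SD, n = 4) and 10.51 ± 0.09 (SD, n = 5), and the log2 difference of 0.27 (SE 0.08, interval 0.10 to 0.43, 1.20-fold) did not pass (limma adjusted p = 0.0609). It passed under 3 alternative settings: a variance model with trend and robust estimation (adjusted p = 0.0354), array weights (0.0355) and a fit on detected probe sets only (0.0484), all in limma. The second probe set, 1449351_s_at, gave 0.17 (SE 0.08, limma adjusted p = 0.214). In all, 3 family probe sets, 2 of Pdgfra and this 1 of Pdgfc, had every null array above every WT array, and 7.82% of all detected probe sets did. No family probe set had every null array below.

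Pdgfa, the ligand gene needed for adult Leydig cells, read 9.62, 9.78, 9.58 and 9.64 in WT and 9.60, 9.49, 9.71, 9.62 and 9.65 in null testis on 1418711_at. The arrays of both genotypes were interleaved. The log2 difference was -0.04 (SE 0.06, interval -0.18 to 0.10, limma adjusted p = 0.723), and the second probe set, 1449187_at, gave 0.04 (SE 0.06, interval -0.09 to 0.17).

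Pdgfb, whose product binds both receptors and is known as the endothelial signal that recruits pericytes, read 6.68, 6.46, 6.47 and 6.64 in WT and 6.60, 6.46, 6.35, 6.27 and 6.39 in null testis on 1450413_at. The null arrays reached lower but overlapped the WT arrays, and the log2 difference of -0.15 (SE 0.08, interval -0.32 to 0.03) did not pass (limma adjusted p = 0.293). The other probe set, 1450414_at, lay near the detection threshold with means of 4.98 and 5.08, and its difference had the opposite sign (0.10, SE 0.07).

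Pdgfd, the CUB-domain ligand of the beta receptor, read 9.13, 8.92, 9.22 and 9.15 in WT and 9.43, 9.28, 9.27, 9.34 and 9.11 in null testis on 1456532_at. A single null array, replicate 5, lay among the WT arrays, and the log2 difference was 0.18 (SE 0.08, interval 0.00 to 0.35, limma adjusted p = 0.205). On 1426319_at the difference was turned, at -0.16 (SE 0.11, interval -0.40 to 0.07), so the probe sets of Pdgfd disagree in sign and neither passed. The third, 1446691_at, was below detection in both groups (means of 3.70 and 3.71).

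The ligands were compared within arrays in the same way as the receptors. The Pdgfa minus Pdgfb difference shifted by 0.10 between genotypes (SE 0.11, exact permutation p = 0.373, adjusted 0.500), and the Pdgfc minus Pdgfd difference by 0.09 (SE 0.13, exact permutation p = 0.500, adjusted 0.500). Neither shift was larger than the spread between arrays.

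**Figure D3:**
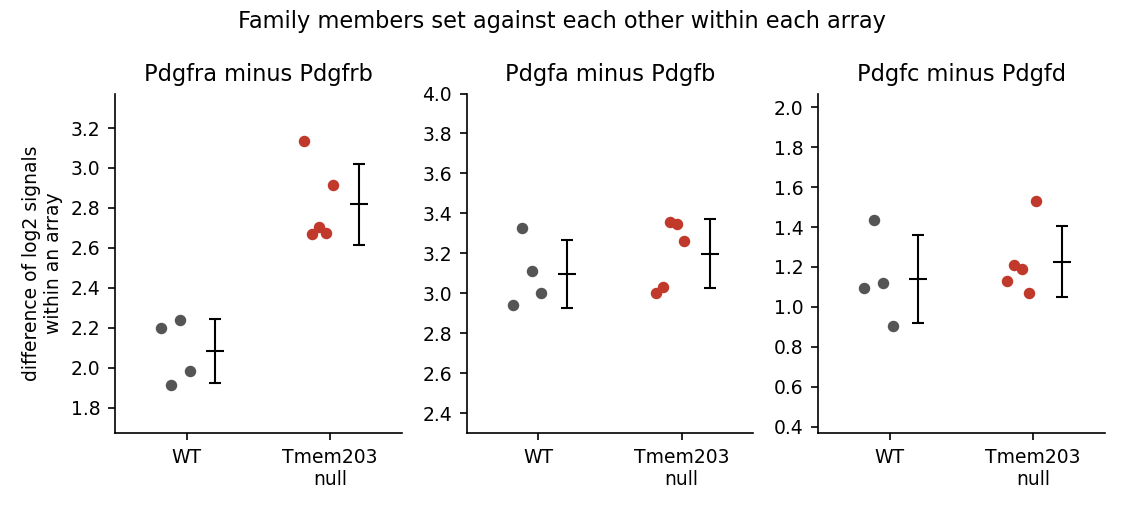
Difference of log2 signals of paired family genes within each testis array, for 4 WT and 5 Tmem203 null arrays, with mean and SD. The Pdgfra minus Pdgfrb difference is 2.67 to 3.13 in null arrays and 1.91 to 2.24 in WT arrays, without overlap, and both ligand pairs overlap.

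Genes that process or bind PDGF ligands were measured for 13 of 14, since Plau, the urokinase gene, was below detection. Through each gene's probe set with the smallest p, 5 were higher in null testis (38.5%), 1 was lower (7.69%) and 7 did not pass, with a median log2 fold change of 0.22. Of all genes 8.03% were higher and 6.82% were lower. Thbs1, whose product thrombospondin binds PDGF, was higher by 0.46 (SE 0.08, limma adjusted p = 0.00639), while its other probe set gave 0.11 and did not pass. Nrp1, a co-receptor, was higher by 0.46 (SE 0.08, adjusted p = 0.00771), with 1 of its 3 other detected probe sets passing. A2m, which codes for a plasma protease inhibitor that traps growth factors, was lower, with a log2 difference of -0.44 (SE 0.08, adjusted p = 0.00883). The 3 other higher genes were Lrp1, the endocytic receptor that pairs with the beta receptor (0.43), the protease gene Furin (0.22), whose product cuts the precursors of PDGF-A and PDGF-B, and the PDGF-binding matrix gene Sparc (0.22), named here after their values were seen. No other probe set of Lrp1 (0.06) or Sparc (-0.08 to 0.29) passed. Plat, the gene of tissue plasminogen activator, which releases PDGF-C from its CUB domain, had a log2 difference of 0.23 (SE 0.09) and did not pass (adjusted p = 0.151). The count of 5 became 3 without WT replicate 2 or without null replicate 1, 4 or 5.

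Of 38 genes that carry the signal inside the cell, 31 were measured, 7 were higher, none was lower and 24 did not pass in limma, with a median of 0.11. The share higher was 22.6%, beside 8.03% of all genes. Ptpn11, the SHP2 phosphatase that docks on the receptors, was higher by 0.41 (SE 0.07, limma adjusted p = 0.00685), with its 2 other probe sets at 0.07 to 0.23 and not passing. Stat3 was higher by 0.47 (SE 0.09, adjusted p = 0.00941), and 1 of its 2 others passed. Grb2, the adaptor that links receptors to RAS, was higher by 0.42 (SE 0.08, adjusted p = 0.0138), and its other probe set gave -0.02. The remaining higher genes were the adaptors Nck2 and Grb10, the kinase Fyn and the exchange factor Sos2, at 0.28 to 0.40. The other probe sets of Nck2 (-0.02) and Grb10 (0.04) did not pass, and that of Fyn (0.32) did. Without null replicate 5 the count was 4.

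Negative regulators of the receptors, 14 of 15 measured, had 2 higher genes, none lower and 12 that did not pass, with a median of 0.12. The share higher was 14.3%, beside 8.03% of all genes. Dusp6, a phosphatase of ERK, was higher by 0.36 (SE 0.06, limma adjusted p = 0.00614). Socs3, the cytokine signal suppressor, was higher by 0.59 (SE 0.11, adjusted p = 0.0132), with its 2 other probe sets at 0.30 to 0.59 and not passing. Acp1, the low molecular weight tyrosine phosphatase, had a difference of -0.22 and did not pass (adjusted p = 0.0552).

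Immediate early genes, the classical first response to PDGF in cultured fibroblasts, were measured for 22 of 24. Of these 4 were higher (18.2%), 1 was lower (4.55%) and 17 did not pass, with a median of 0.03. Of all genes 8.03% were higher and 6.82% were lower. Klf6 was higher by 0.63 (SE 0.10, limma adjusted p = 0.00463), Jun by 0.60 (SE 0.12, adjusted p = 0.0150), Ier3 by 0.51 (SE 0.11, adjusted p = 0.0191) and Egr2 by 0.60 (SE 0.15, adjusted p = 0.0340). Of the other probe sets, 2 of 3 passed for Klf6, and those of Jun (0.31) and Egr2 (0.49) did not. Srf, the serum response factor, was lower with a difference of -0.30 (adjusted p = 0.0421), while another of its probe sets stood at 0.09. Srf no longer passed with WT replicate 1 or 2 or any null replicate left out. Fos, by contrast, had a difference of -0.30 with a wide error (SE 0.35) and Egr1 one of 0.39 (SE 0.21), and neither passed.

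Desert hedgehog, the Sertoli cell signal that acts with PDGF-A on the Leydig cell lineage, was covered by 8 of 9 pathway genes. Ptch1, its receptor and target, was higher by 0.48 (SE 0.11, limma adjusted p = 0.0238), and the other 7 did not pass. This 1 gene made the share higher 12.5%, beside 8.03% of all genes. Dhh itself had a difference of 0.15 (SE 0.11) and Gli1, another target, one of 0.10 (SE 0.08). Ptch1 did not pass without WT replicate 2 or null replicate 1, 3 or 5, and the count of higher genes was 2 without WT replicate 3.

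**Figure D4:**
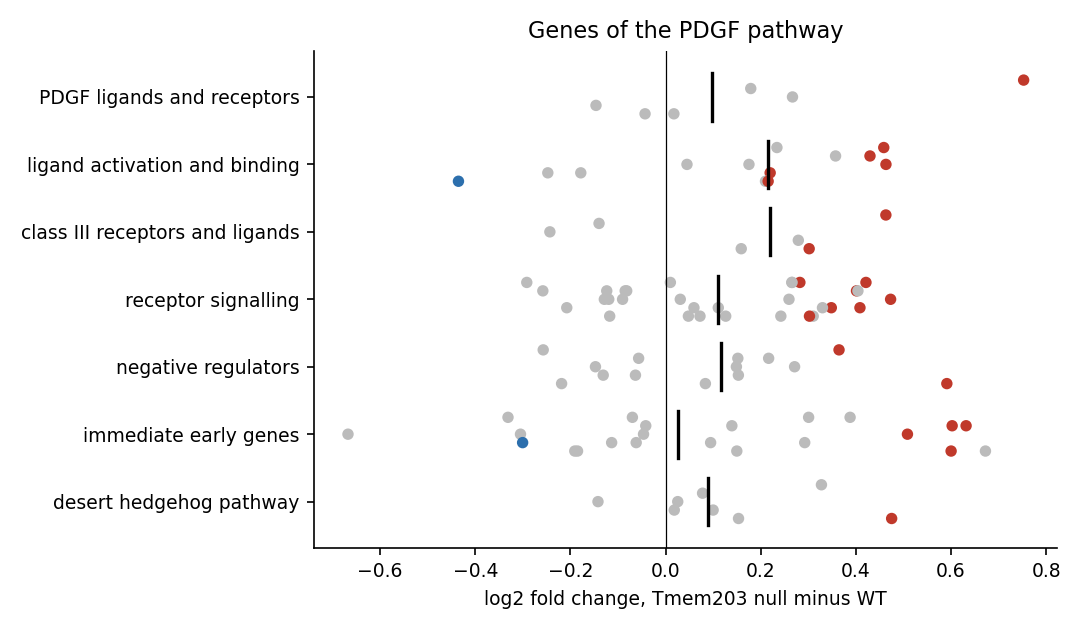
Log2 fold change, Tmem203 null minus WT, of each measured gene in the PDGF family and in 6 related gene lists; genes that passed are red where higher and blue where lower, the rest are grey, and black ticks mark medians. Pdgfra (0.75) lies to the right of every other point, and the list medians lie between 0.03 and 0.22.

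The PDGF receptors belong to the class III receptor tyrosine kinases and sit beside relatives in the genome: Kit and Kdr follow Pdgfra, and Csf1r follows Pdgfrb. Kit, the receptor of stem cell factor, carried by differentiating spermatogonia and by Leydig cells, had a mean of 7.06 ± 0.14 in the 4 WT arrays and of 7.52 ± 0.14 (SD) in the 5 null arrays. Its log2 difference was 0.46 (SE 0.09, limma adjusted p = 0.0122), and its other probe set gave 0.65 and passed as well. Kitl, which codes for the ligand of Kit and is made by Sertoli cells, was higher by 0.30 (SE 0.08, adjusted p = 0.0432), with 1 of its 3 other probe sets passing. Kdr, the endothelial VEGF receptor, had a difference of 0.30 (SE 0.12, adjusted p = 0.157), and Csf1r, the macrophage growth factor receptor, one of 0.28 (SE 0.10, adjusted p = 0.125). Of the 6 measured class III receptors and ligands outside the PDGF family, 2 were higher (33.3%, beside 8.03% of all genes) and 4 did not pass. The count of 2 was 1 with any 1 array left out except null replicate 2.

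On the other side of Pdgfra, Fip1l1, Lnx1 and Chic2 had differences of 0.09, -0.05 and 0.03, none of which passed. Of all genes 8.03% were higher and 6.82% were lower. Neighbours were the 3 nearest protein-coding genes on each side of each of the 6 members that had a detected single-gene probe set. Over these 36 genes 7 were higher (19.4%), 5 were lower (13.9%) and 24 did not pass, with a median of 0.05. Those with the smallest p were Slc26a2, a sulfate transporter near Pdgfrb (0.47, SE 0.08, limma adjusted p = 0.00743), Apobec3, an antiviral deaminase near Pdgfb (0.52, SE 0.09, adjusted p = 0.00841), and Prkar1b, a protein kinase A subunit near Pdgfa (-0.36, SE 0.06, adjusted p = 0.00860). The other probe sets of Slc26a2 ran from -0.13 to 0.55 with 1 of 2 passing, and those of Prkar1b from -0.44 to -0.23 with 3 of 4 passing. The higher count was 4 with WT replicate 1, 2 or 4 or null replicate 1, 4 or 5 left out, and the lower count was 2 or 3 with any array left out except WT replicate 3 and null replicate 2.

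Pdgfra is known from cells outside the tubules of the adult testis, so markers of the cell types of the testis are given beside it. In whole tissue, more cells of a type and more RNA per cell cannot be told apart. Each list was summarised per array as the mean log2 signal over its measured genes, each through the probe set with the smallest p, a choice that favours differences. Markers of Leydig progenitors and interstitial stroma (9 of 11 measured) had a mean of 7.82 to 8.02 in WT and 8.16 to 8.39 in null arrays, without overlap. In this list 4 genes were higher (44.4%, beside 8.03% of all genes) and none was lower. They were Vim, an intermediate filament gene not particular to stroma (0.45, SE 0.06, limma adjusted p = 0.00172), Nr2f2, a nuclear receptor of stromal cells (0.50, SE 0.10, adjusted p = 0.0131), the cytokine receptor gene Lifr (0.65, SE 0.15, adjusted p = 0.0288) and Wnt5a (0.54, SE 0.13, adjusted p = 0.0341). Both other probe sets of Vim passed as well. None of the others did for Nr2f2 (5 at 0.06 to 0.32), Lifr (2 at 0.01 to 0.17) or Wnt5a (2 at 0.39 to 0.47). The count was 2 without WT replicate 1 or 2 or null replicate 1 or 5. Gli1, Thy1, Nes, Tcf21 and Cd34 did not pass, with differences between -0.13 and 0.25.

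Adult Leydig cell markers (8 of 11 measured) had 4 higher and none lower, and their means met at the edge, with 10.52 to 10.89 in WT and 10.88 to 11.06 in null arrays. Cyp11a1, the first enzyme of steroid synthesis, was higher by 0.50 (SE 0.08, limma adjusted p = 0.00468), Hsd3b1 by 0.64 (SE 0.12, adjusted p = 0.0118) and Hsd17b3 by 0.45 (SE 0.10, adjusted p = 0.0249). A second probe set of Cyp11a1 gave 0.34 and did not pass. Star (0.40, SE 0.24) and Cyp17a1 (0.21, SE 0.18) did not pass. The count was 2 without WT replicate 2 or 4 or null replicate 1 or 4.

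Sertoli cell markers (13 of 16 measured) had 8 higher (61.5%, beside 8.03% of all genes) and none lower. Their means were 10.53 to 10.70 in WT and 10.80 to 10.93 in null arrays. Gata4 (0.38, SE 0.06, limma adjusted p = 0.00660), Sox9 (0.38, SE 0.07, adjusted p = 0.0108) and Amhr2 (0.31, SE 0.07, adjusted p = 0.0251) led this list. The second probe set of Gata4 (0.34) passed, whereas those of Sox9 (0.39) and Amhr2 (0.29 to 0.31) did not. The count of this list moved between 2 and 10 with 1 array left out, and was 5 or fewer with any array but WT replicate 3 left out. Macrophage markers (11 measured) had 3 higher (27.3%, beside the same 8.03%) and none lower, namely Mrc1 (0.41), Cd163 (0.58) and Cx3cr1 (0.54). The macrophage means were 8.30 to 8.74 in WT against 8.72 to 8.92 in null arrays. The other probe set of Cx3cr1 (0.23) did not pass. That count was 1 without WT replicate 3 or 4 or null replicate 1, 4 or 5.

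No gene of the myoid or pericyte lists passed. Peritubular myoid and smooth muscle markers such as Acta2 and Myh11 (10 measured) had a median of -0.09 and means of 8.39 to 8.73 in WT and 8.49 to 8.61 in null arrays. Pericyte markers such as Rgs5 (8 measured) had a median of -0.02 and means of 6.53 to 6.62 against 6.54 to 6.67. Fibroblast and collagen genes had none higher and 3 lower of 12 (25.0%, beside 6.82% of all genes). These were Loxl1 (-0.36, SE 0.06, limma adjusted p = 0.00653), Lum (-0.49, SE 0.11, adjusted p = 0.0214) and Mfap5 (-0.26, SE 0.07, adjusted p = 0.0380). The other probe sets of Loxl1 (-0.05) and Mfap5 (-0.25) did not pass. Without WT replicate 2 or null replicate 1 or 4 that count was 1. The median of this list was -0.13, and its means overlapped, at 7.92 to 8.14 in WT and 7.89 to 8.11 in null arrays. A positive difference was seen in 5 of the 12, among them Col3a1 (0.33) and Col1a1 (0.24), and none of these passed. Of the endothelial markers 2 of 10 were lower, Egfl7 (-0.55, SE 0.08, adjusted p = 0.00285) and Vwf (-0.37, SE 0.07, adjusted p = 0.0130), and 2 of the 3 other probe sets of Egfl7 passed. The endothelial list as a whole was not lower: 7 of the 10 had a positive difference and the median was 0.05. Its means were 7.03 to 7.23 in WT and 7.08 to 7.21 in null arrays.

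Among the germ cell lists 2 genes passed, both lower: 1 of 8 spermatogonia markers (12.5%) and 1 of 10 spermatocyte markers (10.0%). Of all genes 6.82% were lower. Round spermatid markers (9 measured) had a mean of 12.53 to 12.63 in WT and 12.43 to 12.53 in null arrays and a median of -0.08, and elongating spermatid markers a median of -0.01, with none passing in either list. The elongating spermatid signal was high, with Prm2 at a mean of 14.65 in WT arrays. Whether the arrays could show a loss at that level was not tested. The 2 genes that passed were Sohlh1 of spermatogonia (-0.40, SE 0.06, limma adjusted p = 0.00469) and Dmc1 of spermatocytes (-0.33, SE 0.07, adjusted p = 0.0141). The other probe set of Dmc1 had the opposite sign (0.10) and did not pass. The 2 red blood cell markers measured did not pass. The stromal, Leydig, Sertoli and macrophage means, the lower round spermatid mean and the lower Gapdh 3′ minus 5′ signal thus moved with the same genotype as Pdgfra, and their part in its difference was not tested. Null replicate 1 had the highest null mean in all 4 of the raised lists and the highest Pdgfra signal, and Pdgfra passed without it, as given above. It also had the highest null mean in lists that were not raised, among them the myoid, fibroblast, endothelial and spermatogonia lists. In the pericyte, spermatocyte and both spermatid lists another null array was highest.

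**Figure D5:**
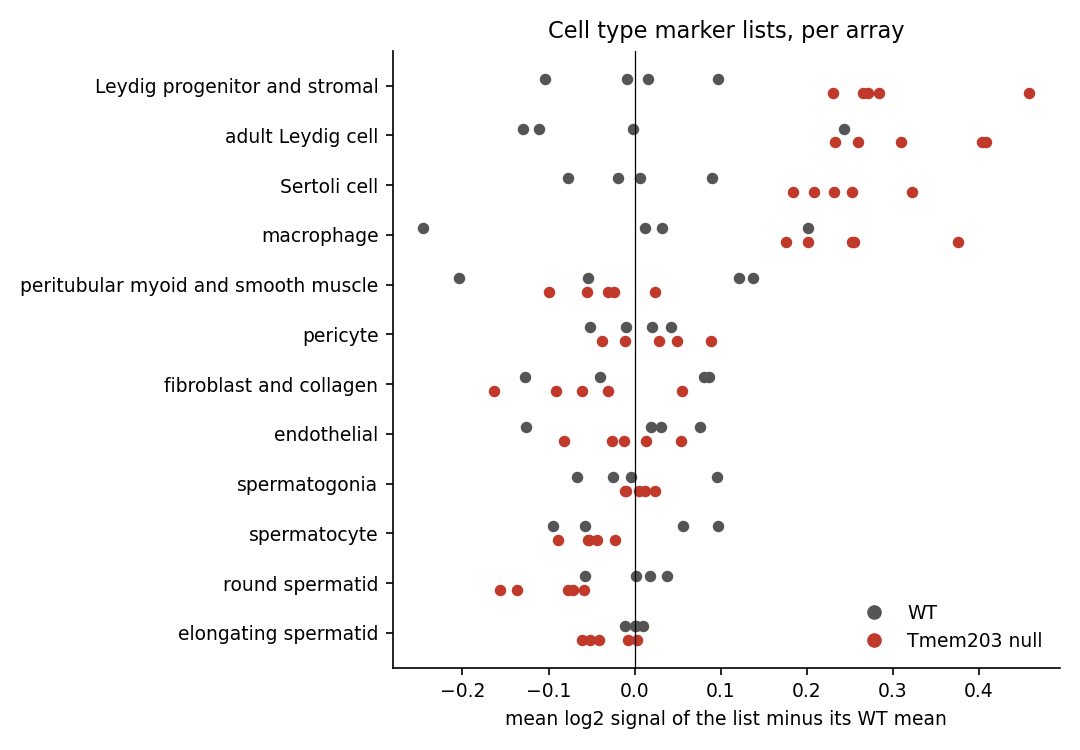
Mean log2 signal of each cell type marker list minus its WT mean, with 1 point per testis array (4 WT, 5 Tmem203 null). Stromal and Sertoli lists have every null array to the right of every WT array, adult Leydig and macrophage lists touch, and myoid, pericyte, fibroblast and endothelial lists are mixed.

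The 5 genes whose signal most resembled that of Pdgfra over the 9 arrays were Atp1b2 (r = 0.992), a sodium pump subunit, Shisa4 (0.991), the forkhead factor gene Foxp4 (0.991), Dpyd (0.990), which codes for a pyrimidine-degrading enzyme, and Bahd1 (0.989), a chromatin protein gene. Part of each value is the genotype difference, since all 5 were higher in null testis, by 0.31 for Bahd1 to 1.11 for Shisa4. With the genotype means taken away, r ranged from 0.92 for Bahd1 to 0.98 for Dpyd. The correlations are descriptive: the arrays share their normalization, and these genes were picked as the highest of all.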

How the data were processed

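The 4 WT and 5 Tmem203 null testis samples were hybridised to Affymetrix mouse arrays. Per probe set the authors deposited a log2 signal made by Robust Multichip Average (background adjustment, quantile normalization across arrays, summary per probe set). Limma, without a version, is named in the submitters' processing notes. The number of arrays limits the precision. Because arrays were normalized together, changes are relative to the bulk of probe sets.

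For each probe set, null was compared with WT in limma 3.58.1 (R 4.3.3; lmFit and eBayes), with Benjamini-Hochberg adjustment over 45037 probe sets, leaving out 64 control probe sets. Passing meant an adjusted p under 0.05, detection a log2 signal reaching 5 on any array, and a call a 1.5-fold change besides. The platform annotation gave 34945 of them 1 gene symbol, 932 several and 9160 none. Entrez identifiers matched 34741 to RefSeq of GRCm38.p6, used for names and gene order. Genes were counted through the detected single-gene probe set with the smallest p. Within-array differences were tested by exact permutation over 126 labelings. Promoter windows of 250 bases came from RefSeq and were present for 4 of the 6 members; protein sequences were not used here.

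All 6 members were named, up to 3 genes of each list and of the 3 neighbours on each side with the smallest p, and the 5 genes most like a passing member. Others are marked or were named for their place in the pathway. The members and lists were chosen with earlier results of these data known. Alternatives covered centring, a further quantile normalization, variance model, array weights, detection filter, cross-hybridizing probe sets, a block on replicate number, leaving out each array and the methods' t-test. That t-test (unpaired, threshold p under 0.01) is from the study's general statistics, whereas the study tested its arrays with limma. The procedure was tested on simulated data. Scan dates were not used here, so batches were not tested. Tables were joined and drawn with Python 3.11.15.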

Additional observations from a re-analysis of the deposited data

Results flagged for a closer look

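Of 160 groups of arrays checked for a single array far from the rest, 9 had one, and about 1 in 20, or 8.0, would by chance. None was a probe set of a PDGF ligand or receptor. The value given is the gap to the nearest array divided by the range of the group. In null replicate 1, which also had the highest Pdgfra signal, Csf1r read 10.12 with the nearest array at 9.83 (0.897), Hsd17b3 read 12.05 beside 11.82 (0.770) and Apobec3 read 8.99 beside 8.71 (0.780). In WT replicate 1, Gata4 read 6.16 beside 6.04 (0.909) and Cd163 read 7.59 beside 7.15 (0.837). In WT replicate 4, Tpm1 read 4.68 beside 5.16 (0.835) and Slc4a1 read 5.43 beside 5.62 (0.927). Slc26a2 in WT replicate 2 read 10.03 beside 10.21 (0.848), and Egfl7 in null replicate 2 read 7.31 beside 7.08 (0.775). No cause was tested.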

How the results depend on the processing

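Pdgfra passed under every alternative run, with log2 differences of 0.67 to 0.82 when 1 array was left out and an adjusted p of 0.0323 with the replicate number as a block (0.75) and 0.0178 with the methods' t-test. Pdgfc passed under a trend and robust variance model (0.27), array weights (0.30) and detected probe sets only (0.27), and gave 0.20 to 0.31 with 1 array left out and 0.23 (adjusted p = 0.164) under the replicate block. These 3 settings raised the family probe sets passing from 2 to 3. Pdgfrb, near 0, turned to -0.014 after median centring, -0.018 after a further quantile normalization and -0.043 without WT replicate 1, within its interval. With 1 array left out the receptor difference was 0.66 to 0.79, Pdgfd 0.12 to 0.22, Pdgfb -0.19 to -0.11 and Pdgfrb -0.043 to 0.047. The methods' t-test gave 2 family probe sets at its own threshold and 2 after Benjamini-Hochberg. Same-numbered arrays did not deviate together (r from -0.07 to 0.10, and 1 of 4 matched best with its own number), so the numbers were not read as pairs. Null replicate 5 has no WT partner, so the block in effect drops it. The probe sets passing among all were 3367, 1925 without that array, 1174 with the block, 2058 with the methods' t-test, and 1925 to 3603 over all single arrays left out. An alternative chosen after seeing the data left out each array for the list counts: higher genes numbered 3 to 5 for ligand activation, 4 to 8 for signalling, 2 to 3 for negative regulators, 2 to 10 for Sertoli cells and 2 to 4 for both Leydig lists. The scans were not used here, so background correction could not be varied.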
